A study of Mus musculus with 56 samples.

Results

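Heart transcripts of mice fed only in the dark phase (nighttime-restricted feeding, NRF) were compared between ZT20, in the dark while food was present, and ZT8, in the light while the mice fasted. ZT, zeitgeber time, counts hours from lights on. The comparison takes 8 of the 56 heart libraries of the series, 4 labelled NRF ZT20 and 4 labelled NRF ZT8, as their labels assign them. The donors were C57BL/6J females of 9 weeks, an inbred mouse strain, under a cycle of 12 h light and 12 h dark, and every group had food in 1 phase alone for 7 days. The series covers 7 ZTs under NRF and under daytime-restricted feeding (DRF), with 4 libraries each. Under NRF, clock time, lighting and food change together between ZT8 and ZT20 and cannot be told apart. In the DRF hearts the lighting at these ZTs is the same and the feeding state is the opposite, so the DRF pair of groups is used below to test which differences depend on the feeding regimen. The labels do not say that replicates are separate animals, and every p-value below measures the spread between these libraries.

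The molecular clock is a loop in which BMAL1 (encoded by Arntl) and CLOCK activate genes carrying E-boxes, among them the Per, Cry and Nr1d genes, whose products then repress BMAL1, CLOCK or the Arntl gene itself. Heart muscle draws most of its energy from fatty acids and leans on them further during a fast, when PPAR nuclear receptors raise genes such as Pdk4, whose kinase shuts off glucose oxidation. Feeding and the active phase also bring rises in body temperature, to which heat shock chaperones and cold-inducible RNA-binding proteins are known to respond.

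The 8 libraries held 30.0 to 46.2 M recovered reads, and the 56 libraries 29.3 to 53.0 M. Values are TPM, transcripts per M, which are reads per base of exon scaled to the same sum in each library and recomputed from the recovered reads. The markers of cardiomyocytes summed to 28200 to 33010 TPM in the 8 libraries, and Myh6, Actc1 and Myl2, genes of cardiac muscle filaments, stood at 4288 to 5862, 10722 to 13954 and 6549 to 8005 TPM. Atrial marker sums ranged from 432 to 3598 TPM at ZT8 and from 436 to 1600 TPM at ZT20, and red cell marker sums from 2893 to 40730 TPM. Fat marker sums were 58.3 to 91.0 TPM at ZT8 and 50.5 to 60.4 TPM at ZT20, and smooth muscle marker sums 236.8 to 338.4 and 218.7 to 261.5 TPM (two-sided exact permutation p = 0.0571 and 0.0857 over 70 splits). With 15 library measures compared and 0.0286 as the smallest p these splits allow, an adjusted p under 0.05 would need most of them to separate together, and the part of cell composition in the results was not tested. In bulk tissue, fewer cells of a type and less RNA per cell cannot be told apart.

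1 library stood apart from its label in its clock genes. Over the 19 clock genes tested, replicates 2 to 4 of NRF ZT8 correlated best with the mean of the other NRF ZT8 libraries (r = 0.932 to 0.985 across genes, which are not independent). Replicate 1 of NRF ZT8 had r = -0.169 with its own group and r = 0.768 with NRF ZT4. Over the 500 most variable genes it was closest to DRF ZT4 (r = 0.42) and had r = -0.123 with its own group. On the same 500 genes NRF ZT20 replicate 4 was closer to NRF ZT0 (r = 0.268) than to its own group (r = 0.208), and replicate 3 stood at 0.312 with NRF ZT16 and 0.311 with its own, while over the clock genes all 4 ZT20 libraries were closest to their group (r = 0.955 to 0.972). Results are given with all 8 libraries, and most counts and several leading genes also without NRF ZT8 replicate 1, which leaves 4 libraries against 3.

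With all 8 libraries, 1529 of 13893 genes differed between ZT20 and ZT8 (11.0%, limma with a Benjamini-Hochberg adjusted p under 0.05), 405 of them higher at ZT20 (2.92%) and 1124 lower (8.09%). Without NRF ZT8 replicate 1 the number was 2400 (17.3%), 578 higher (4.16%) and 1822 lower (13.1%). The genes called in both fits with the same sign numbered 1440, with 366 higher and 1074 lower, and they make up 94.2% of the first set. The excess of lower genes depended on the scaling of the libraries and on 1 library. When libraries were scaled by the median of ratios, 1004 genes were higher and 1139 lower with all 8 libraries, and 1490 were higher and 1435 lower without replicate 1. Without NRF ZT8 replicate 4, 331 genes were higher and 417 lower. The median difference over all genes was -0.04 on the log2(TPM + 1) scale in the main fit and 0.01 under that scaling. Large differences were few: 23 called genes were at least 1 higher and 27 at least 1 lower on that scale, and 32 and 44 without replicate 1. For genes near 1 TPM the added 1 makes a change look smaller than it is.

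**Figure D1:**
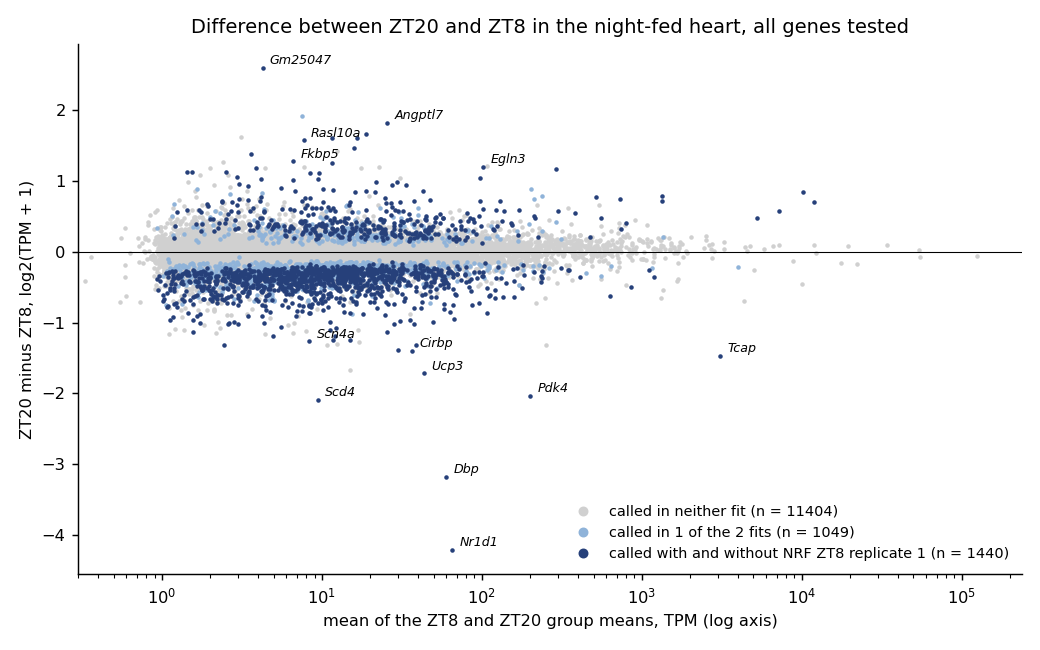
Difference between ZT20 and ZT8 under NRF, as log2(TPM + 1) with 4 libraries per group, against the mean of both group means in TPM on a log axis, with 1 point per gene. Dark points are the 1440 genes called with and without NRF ZT8 replicate 1, light blue points the 1049 called in 1 of both fits and grey points the 11404 called in neither. Nr1d1 at -4.22 and Dbp at -3.18 lie farthest below 0, and Tcap is the most abundant gene among the labelled ones.

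The 2 largest falls were those of clock genes. Nr1d1 (ENSMUSG00000020889, chr11:98767932-98775333, minus strand, GRCm38), which encodes the repressor REV-ERB alpha, stood at 54.0, 139.9, 137.1 and 170.3 TPM in ZT8 replicates 1 to 4 and at 5.08, 5.41, 4.93 and 5.62 TPM in the ZT20 libraries. All ZT20 libraries thus lay below all ZT8 libraries, a pattern of 9.19% of all genes (the opposite held in 3.91%). The ZT8 mean was 23.8 times the ZT20 mean, and 28.4 times without ZT8 replicate 1. The log2 difference was -4.22 ± 0.27 (SE, n = 4 and 4, limma adjusted p = 1.48e-15). Its exons overlap those of Thra on the opposite strand, and the library kit does not mark strand. Dbp (ENSMUSG00000059824, chr7:45705088-45710203, plus strand), a PAR bZIP activator driven by E-boxes, measured 20.1 TPM in ZT8 replicate 1 and 117.2, 149.7 and 158.5 TPM in replicates 2 to 4. The ZT20 libraries held 9.53, 7.43, 11.3 and 7.04 TPM of Dbp. Replicate 1 was thus the low library of its group and still above every ZT20 library. The difference of Dbp was -3.18 ± 0.42 (SE, limma adjusted p = 1.4e-06) and became -3.87 without replicate 1 (adjusted p = 5.32e-10).

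Of the 12 clock repressors and E-box output genes tested, 7 fell with all 8 libraries and 10 without replicate 1, against 8.09% and 13.1% of all genes. None rose in either of these fits, while under median-of-ratios scaling 8 fell and Per2 rose. Their median difference was -0.82 and -1.12, against -0.04 and -0.07 over all genes. Nr1d2, encoding REV-ERB beta, fell from 32.1, 61.2, 69.6 and 62.1 TPM to 26.8, 17.1, 21.8 and 19.7 TPM, by 1.32 on the log2 scale (limma adjusted p = 4.53e-06). Bhlhe40, which encodes the repressor DEC1, fell by 1.03 and Bhlhe41, encoding DEC2, by 0.77 (adjusted p = 0.00155 and 0.000254). Ciart, a further repressor of CLOCK and BMAL1, held 1.59 TPM in ZT8 replicate 1, less than in any ZT20 library, where it ranged from 1.86 to 2.70 TPM. Replicates 2 to 4 held 6.66, 12.5 and 10.1 TPM, and the difference was -1.19 with replicate 1 (adjusted p = 0.0228) and -1.70 without it (adjusted p = 0.000373). Per1, a period gene, showed the same split, with 5.64 TPM in replicate 1, 18.5 to 42.4 TPM in the other ZT8 libraries and 7.27 to 12.5 TPM at ZT20. Its call rested on the exclusion of replicate 1 (adjusted p = 0.113 with and 0.00455 without it), as did those of the PAR bZIP genes Hlf (0.056 and 0.00134) and Tef (0.143 and 0.0181). Per3 fell by 0.55 (adjusted p = 0.0398). Per2 measured 3.99 to 7.97 TPM at ZT8 and 7.78 to 11.9 TPM at ZT20 and passed in neither of these fits (adjusted p = 0.0602 and 0.15), though it did under median-of-ratios scaling (0.72, adjusted p = 0.0243). Cry2, a cryptochrome, had a difference of -0.06 and did not pass.

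Genes on the list of clock activators and Bmal1-phase genes were mostly higher at ZT20. Of these 7 genes, which include the repressors Nfil3 and Cry1, 5 rose in both fits and none fell, against 2.92% and 4.16% of all genes that rose. The median was 0.99, and 1.20 without replicate 1. At ZT16 under NRF 2 of the 7 were higher than at ZT4 and 3 lower, so they did not share 1 phase. Nfil3 (ENSMUSG00000056749, chr13:52967209-52981073, minus strand), a repressor that competes with DBP for D-boxes, measured 22.4 TPM in ZT8 replicate 1, 4.98, 6.74 and 5.31 TPM in replicates 2 to 4, and 27.5, 30.4, 27.8 and 25.7 TPM at ZT20. Replicate 1 was near the ZT20 libraries, and the fold in the means was 2.83 with and 4.91 without it. Cry1 (ENSMUSG00000020038, chr10:85131700-85185064, minus strand), a cryptochrome of the repressor complex whose transcript lags those of the other E-box genes, rose from 13.2, 5.44, 6.70 and 6.57 TPM to 24.9, 25.8, 25.2 and 24.1 TPM. The difference was 1.61 ± 0.16 (SE, limma adjusted p = 9.64e-10). Arntl itself held 5.99 TPM in ZT8 replicate 1, 0.884 to 1.93 TPM in replicates 2 to 4 and 4.73 to 6.82 TPM at ZT20. It rose by 1.02 and, without replicate 1, by 1.39. Clock rose by 0.32 (adjusted p = 0.0166). Npas2, a partner of BMAL1, showed -0.23 with replicate 1 and 0.08 without it and passed in neither fit, as did Rora.

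**Figure D2:**
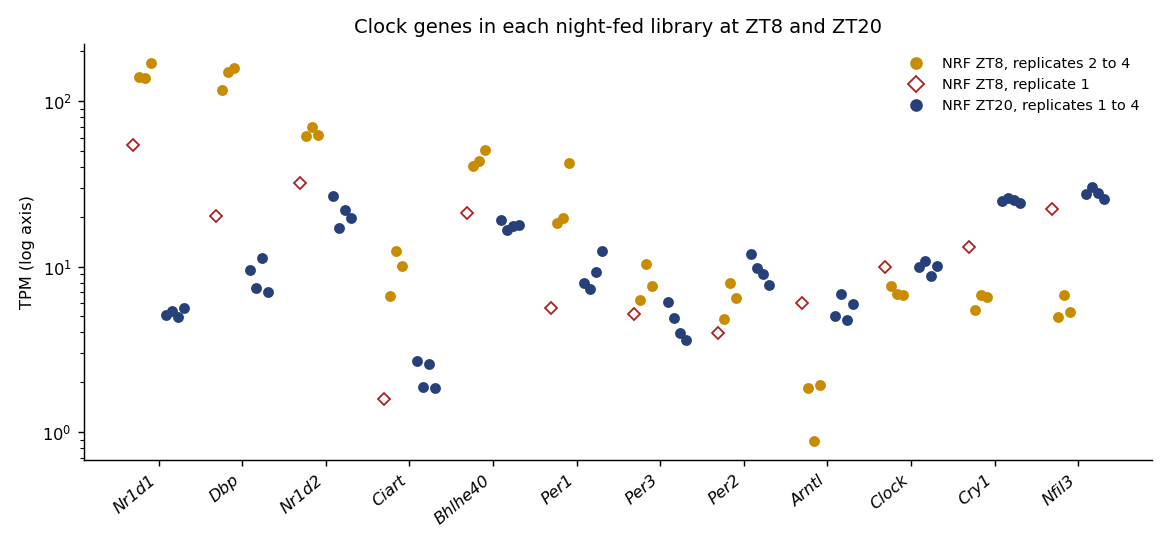
TPM on a log axis of 12 clock genes in each NRF library, with ZT8 replicates 2 to 4 as gold points, ZT8 replicate 1 as open red diamonds and the 4 ZT20 libraries as blue points. For Nfil3, Arntl and Ciart the diamond lies near the ZT20 libraries, for Dbp and Nr1d1 between the groups.

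The sequences around the start sites of clock genes that moved in opposite directions are shown for the short motifs they hold. They are RefSeq promoters of build GRCm38.p6, 250 bases before to 50 bases after the start, 5′ to 3′ along the gene. Capitals mark the E-box CACGTG in Ciart (chr3:95882179-95882478, minus strand) and Cry1 (chr10:85185005-85185304, minus strand), the D-box TTATGTAA in Per3 (chr4:151044616-151044915, minus strand), and the RORE core TAGGTCA, read on the other strand as TGACCTA, in Nfil3 (chr13:52980990-52981289, minus strand).
Ciart: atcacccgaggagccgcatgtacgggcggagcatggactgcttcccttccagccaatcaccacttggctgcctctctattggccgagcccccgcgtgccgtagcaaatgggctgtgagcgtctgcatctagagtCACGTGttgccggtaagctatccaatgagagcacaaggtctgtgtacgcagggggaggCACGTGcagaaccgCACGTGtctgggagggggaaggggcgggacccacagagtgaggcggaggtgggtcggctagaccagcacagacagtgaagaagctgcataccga
Per3: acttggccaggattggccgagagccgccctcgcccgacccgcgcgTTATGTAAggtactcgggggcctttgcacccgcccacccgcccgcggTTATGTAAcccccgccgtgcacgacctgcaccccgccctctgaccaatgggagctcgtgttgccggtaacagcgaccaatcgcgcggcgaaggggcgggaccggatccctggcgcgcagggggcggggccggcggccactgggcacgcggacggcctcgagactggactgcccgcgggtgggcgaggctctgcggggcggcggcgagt
Cry1: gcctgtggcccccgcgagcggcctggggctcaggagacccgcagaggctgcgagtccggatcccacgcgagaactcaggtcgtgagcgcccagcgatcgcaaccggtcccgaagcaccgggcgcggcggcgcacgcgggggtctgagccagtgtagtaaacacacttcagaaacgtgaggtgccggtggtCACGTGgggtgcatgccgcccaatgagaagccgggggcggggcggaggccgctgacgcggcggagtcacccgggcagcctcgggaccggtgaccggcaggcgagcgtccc
Nfil3: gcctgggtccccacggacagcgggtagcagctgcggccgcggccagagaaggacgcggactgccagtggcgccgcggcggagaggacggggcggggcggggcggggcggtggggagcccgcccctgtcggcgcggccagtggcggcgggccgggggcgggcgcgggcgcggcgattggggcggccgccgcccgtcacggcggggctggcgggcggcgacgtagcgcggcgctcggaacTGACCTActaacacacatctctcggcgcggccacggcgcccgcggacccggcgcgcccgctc
Both strands were searched, and motifs could overlap. Among the 15 clock genes called in either fit, 13 had a promoter in the table, and 5 of these held CACGTG, against 7.15% of all 32851 promoters. A gene counted if any of its promoters matched, while the shares of all are of single promoters, so the 2 are in unlike units. TTATGTAA was present in 1 of the 13 and in 0.938% of all, and TAGGTCA in 2 of the 13 and in 2.61% of all. Ciart, which fell, carried 3 copies of CACGTG at 116, 58 and 44 bases before its start, and Cry1, which rose, carried 1 at 60 bases. Neither Nr1d1 nor Dbp held any of these motifs in the window. A match is a description of the letters only.

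Several genes of fatty acid use fell at ZT20. Of 20 PPAR-responsive fasting genes tested, 7 fell and none rose with all 8 libraries, and 8 fell and 1 rose without replicate 1, with medians of -0.30 and -0.26. Of all genes, 8.09% fell with all libraries and 13.1% without replicate 1, and 2.92% and 4.16% rose. Pdk4 (ENSMUSG00000019577, chr6:5483351-5496309, minus strand), a kinase that inactivates pyruvate dehydrogenase, stood at 286.7, 423.7, 149.5 and 451.3 TPM at ZT8 and at 68.3, 66.5, 79.1 and 76.5 TPM at ZT20. The groups did not overlap, and the mean was 4.52 times higher at ZT8 (log2 difference -2.04 ± 0.46 SE, limma adjusted p = 0.00222). Ucp3 (ENSMUSG00000032942, chr7:100472990-100486432, plus strand), a mitochondrial uncoupling protein tied to fatty acid load, measured 25.8, 102.8, 59.7 and 88.1 TPM at ZT8, with replicate 1 the lowest, and 15.7, 15.5, 21.2 and 19.8 TPM at ZT20. It fell by 1.72, and by 2.13 without replicate 1. The acyl-CoA thioesterases Acot1 and Acot2 fell by 1.19 and 0.95, and the fatty acid transporter Slc27a1 fell by 1.00 (adjusted p = 0.00228, 0.000813 and 3.3e-06). Acot1 and Acot2 lie next to each other and are close paralogs, so reads may be split between them uncertainly. Pnpla2, the first lipase of lipid droplets, fell by 0.37 (adjusted p = 0.0294, and 0.0535 under median-of-ratios scaling). Angptl4, an inhibitor of lipoprotein lipase, held 3.30 TPM in ZT8 replicate 1, 6.87 to 16.1 TPM in the other ZT8 libraries and 3.32 to 4.54 TPM at ZT20, and passed in neither fit (adjusted p = 0.279 and 0.116). G0s2, an inhibitor of the lipase encoded by Pnpla2, was the 1 gene that rose without replicate 1, by 1.05 (adjusted p = 0.00368, against 0.0561 with it and 0.0285 under median-of-ratios scaling). Cd36, Lpl, Fabp3 and Plin2, which handle uptake, release, transport and storage of fatty acids, had differences of -0.08 to -0.13 and passed in neither fit.

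Among 28 enzymes of fatty acid oxidation, 6 fell and none rose in either fit, and 22 passed in neither. The 6 are 21.4% of the list, against 8.09% of all genes that fell, and 13.1% without replicate 1. The 6 were Cpt1a (-0.96), Ehhadh (-0.56), Acsl1 (-0.51), Mlycd (-0.41), Acox3 (-0.26) and Hsd17b4 (-0.26). Cpt1a is the liver-type isoform of the enzyme that commits acyl groups to mitochondria, and it went from 31.3, 53.6, 44.3 and 62.1 TPM at ZT8 to 23.3, 24.5, 23.1 and 22.7 TPM at ZT20 (limma adjusted p = 0.000189). The muscle isoform Cpt1b differed by -0.08 and the dehydrogenases Acadm, Acadl and Acadvl by -0.04, -0.11 and -0.12. Ehhadh and Acox3 act in peroxisomes, as does Hsd17b4. Of 22 genes of lipogenesis and triglyceride synthesis, 3 fell and none rose in each fit (13.6%, against 8.09% and 13.1% of all genes that fell). Gpam, the first acyltransferase of that route, fell by 0.73, Agpat2 by 0.55, and Scd4, a stearoyl-CoA desaturase of the heart, by 2.10. Scd4 measured 11.1, 18.6, 8.09 and 27.1 TPM at ZT8 and 1.78, 3.14, 3.04 and 2.89 TPM at ZT20, with no overlap (adjusted p = 1.65e-05). Of 31 glucose uptake and glycolysis genes, 2 rose and 3 fell with all libraries (6.45% and 9.68%, beside 2.92% and 8.09% of all genes). Without replicate 1, 2 rose and 4 fell, Slc2a1 being added. Under median-of-ratios scaling 4 rose and 3 fell, and without replicate 1 that scaling gave 6 rises and 3 falls. Ppp1r3c, which targets protein phosphatase 1 to glycogen, rose by 0.72, and Pdp2, the phosphatase that opposes Pdk4, fell by 0.68.

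In the list of insulin, FOXO and atrophy genes, 2 of 22 fell with all libraries, a share of 9.09% that is near the 8.09% of all genes, and 7 fell without replicate 1, where 13.1% of all genes did. The 2 were Gadd45a (-0.57), a stress gene, and Eif4ebp1 (-0.31), a brake on translation. The atrophy ligase Fbxo32 held 16.4 TPM in replicate 1 against 36.1, 42.1 and 39.3 TPM in the other ZT8 libraries and 20.8 to 27.0 TPM at ZT20, and its adjusted p went from 0.185 to 0.00864. Among 21 autophagy genes 3 fell with all libraries (Wipi1, Ulk1 and Atg7) and 6 without replicate 1, against the same shares of all genes. Cholesterol synthesis and uptake had 4 of 19 genes lower, 5 without replicate 1, and none higher, against 8.09% and 13.1% of all genes that fell. Hsd17b7 led at -0.72 (limma adjusted p = 0.000242). Under median-of-ratios scaling 3 fell with and without replicate 1. In the DRF hearts 8 of the 19 fell, where 8.66% of all genes did.

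**Figure D3:**
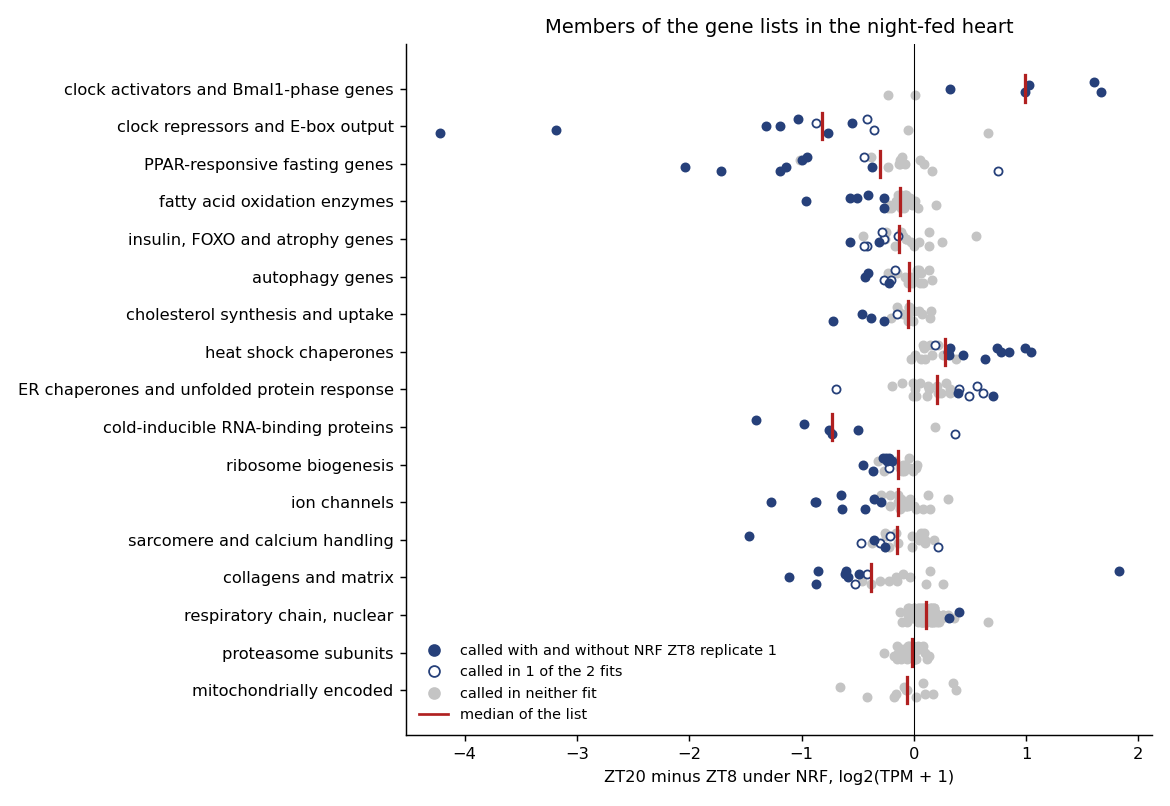
Difference between ZT20 and ZT8 under NRF, as log2(TPM + 1) with all 8 libraries, for the members of 17 gene lists, 1 point per gene, with the median of each list as a red bar. Filled blue points passed with and without NRF ZT8 replicate 1, open points in 1 of both fits and grey points in neither. The medians of clock activators and Bmal1-phase genes (0.99) and heat shock chaperones (0.28) lie to the right of 0, and those of clock repressors (-0.82) and cold-inducible RNA-binding proteins (-0.73) to the left.

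Many heat shock chaperones were higher at ZT20. Of 22 tested, 10 rose with all 8 libraries, 11 rose without replicate 1 and none fell, against 2.92% and 4.16% of all genes that rose. The median was 0.28 and, without replicate 1, 0.37. Hsp90aa1 (ENSMUSG00000021270, chr12:110690605-110702728, minus strand), the inducible HSP90, measured 115.7, 48.9, 47.4 and 53.5 TPM at ZT8 and 147.6, 141.9, 109.0 and 117.5 TPM at ZT20. Replicate 1 lay within the range of the ZT20 libraries, and the fold in the means was 1.94 with and 2.58 without it. The difference was 1.04 ± 0.21 (SE, limma adjusted p = 0.000796). Hsph1, an HSP110 exchange factor, went from 20.5, 11.9, 12.3 and 13.0 TPM to 35.3, 29.5, 27.2 and 24.9 TPM. Chordc1, an HSP90 cochaperone, went from 18.3, 9.09, 9.30 and 9.14 TPM to 23.3, 22.3, 17.8 and 18.9 TPM, and in both fits it rose (adjusted p = 4.38e-05 and 2.91e-08). In each of these genes replicate 1 was the highest ZT8 library. Hspa8, the constitutive HSC70, rose by 0.74, the small chaperone Hspb1 by 0.77 and the HSP90 cochaperone Stip1 by 0.44. Dnaja1, an HSP40, passed narrowly, with a difference of 0.64 and an adjusted p of 0.04999, and 0.00243 without replicate 1. Hspa1a and Hspa1b, the near-identical stress-inducible HSP70 genes, showed 0.37 and 0.22 and passed in neither fit, nor did Bag3, Dnajb1 or Hsf1, which encodes the heat shock factor itself.

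Sequences around the start sites of Chordc1 (chr9:18292017-18292316, plus strand) and Hsph1 (chr5:149636266-149636565, minus strand) are shown because both hold the heat shock element in the same RefSeq windows, searched as alternating GAA, TTC and GAA units with any 2 bases between them. Capitals mark this element and, in Hsph1, also the E-box CACGTG.
Chordc1: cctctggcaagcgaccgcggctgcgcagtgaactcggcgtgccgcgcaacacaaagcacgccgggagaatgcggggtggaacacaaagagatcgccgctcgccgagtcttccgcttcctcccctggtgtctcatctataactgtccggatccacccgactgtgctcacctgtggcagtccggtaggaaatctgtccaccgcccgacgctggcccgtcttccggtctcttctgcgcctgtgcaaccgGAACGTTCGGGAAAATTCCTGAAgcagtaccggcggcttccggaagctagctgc
Hsph1: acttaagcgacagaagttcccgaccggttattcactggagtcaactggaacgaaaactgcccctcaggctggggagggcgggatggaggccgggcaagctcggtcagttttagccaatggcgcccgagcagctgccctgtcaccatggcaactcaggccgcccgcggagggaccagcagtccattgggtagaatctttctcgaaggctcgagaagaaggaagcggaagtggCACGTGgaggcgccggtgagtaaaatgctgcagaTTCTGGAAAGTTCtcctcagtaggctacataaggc
The capitals in Chordc1 are 3 overlapping matches on both strands. Of the 11 chaperone genes called in either fit, 9 had a promoter in the table. The element was held by 2 of these in at least 1 promoter, against 0.603% of all single promoters.

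Most genes on the list of cold-inducible RNA-binding proteins moved the other way. Of 7 tested, 5 fell in both fits, against 8.09% and 13.1% of all genes. Luc7l3 did not pass with all libraries (adjusted p = 0.0594) and rose by 0.57 without replicate 1 (adjusted p = 0.000664). The median was -0.73 and -0.90. Cirbp (ENSMUSG00000045193, chr10:80165985-80172786, plus strand), the cold-inducible RNA-binding protein, measured 39.9, 57.7, 56.1 and 62.6 TPM at ZT8 and 18.4, 22.0, 21.4 and 16.8 TPM at ZT20. The groups did not overlap, and the difference was -1.40 ± 0.18 (SE, limma adjusted p = 8.5e-07). The splicing factor Srsf5 fell by 0.75, Rbm3 by 0.73 and Rbmx by 0.50. Sfpq had a difference of 0.19 and passed in neither fit. Chaperones of the endoplasmic reticulum gave 2 rises of 23 genes tested, Atf6 (0.71), a sensor of unfolded proteins, and Dnajc3 (0.40), against 2.92% of all genes. Under median-of-ratios scaling 7 rose, and 10 without replicate 1. In the main scaling without replicate 1 there were 6 rises and 1 fall, Hyou1, Manf, Creld2 and Sdf2l1 being added and Chac1 falling.

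Several genes of contraction and excitation fell. Tcap (ENSMUSG00000007877, chr11:98383811-98384953, plus strand), which encodes telethonin of the sarcomeric Z-disc, was the most abundant of the 24 genes with the largest differences. It measured 2041, 5254, 5531 and 5787 TPM at ZT8 and 1619, 1503, 1794 and 1327 TPM at ZT20. Replicate 1 was the low ZT8 library yet above every ZT20 library, and the fall was 1.47 with and 1.83 without it (limma adjusted p = 2.15e-05 and 3.92e-08). Of 24 sarcomere and calcium handling genes, 4 fell with all libraries, the others being Mybpc3 (-0.36), Pln (-0.26) and Myom2 (-0.47), a share of 16.7% against 8.09% of all genes. Without replicate 1 there were 5 falls, Atp2a2 and Slc8a1 being added and Myom2 lost (adjusted p = 0.0578), and Tnnt2, a troponin gene, rose by 0.27 (adjusted p = 0.0284). Under median-of-ratios scaling 3 fell and 1 rose with all libraries, and the call of Pln was lost (adjusted p = 0.161). Without replicate 1 that scaling gave 1 fall and 3 rises, so the direction of this list depended on the scaling. Of 27 ion channel genes tested, 8 fell and none rose in either fit (29.6%, against 8.09% and 13.1% of all genes that fell). The median was -0.14, and -0.17 without replicate 1, against -0.04 and -0.07 over all genes. Under median-of-ratios scaling without replicate 1, 7 fell and 1 rose. Scn4a (ENSMUSG00000001027, chr11:106318592-106353288, minus strand), the sodium channel best known from skeletal muscle, measured 8.88, 12.8, 11.7 and 15.7 TPM at ZT8 and 4.44, 4.56, 4.33 and 4.32 TPM at ZT20. Its groups did not overlap (difference -1.27, adjusted p = 4.64e-05). The sodium channel beta subunit Scn4b fell by 0.88, and the potassium channel genes Kcnd2, Kcne1, Kcnh2, Kcnq1 and Kcnj11 by 0.87, 0.65, 0.64, 0.36 and 0.29. Hcn2, a pacemaker channel, fell by 0.44. The calcium channel Cacna1c had -0.34 and passed in neither fit, nor did Kcnip2 at -0.05.

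A part of the matrix genes was lower at ZT20, with 7 of 21 falling and 1 rising, and 9 falling without replicate 1 (median -0.38 and -0.45). Of all genes, 8.09% fell and 2.92% rose, and 13.1% and 4.16% without replicate 1 (median -0.04 and -0.07). Col3a1, the type III collagen gene, held 102 to 204 TPM at ZT8 and 53.5 to 88.4 TPM at ZT20 (difference -0.87, adjusted p = 0.0179). Col1a1 fell by 0.86 and Col5a3 by 1.11. The fibroblast marker sum, which includes Col1a1, was 389 to 565 TPM at ZT8 and 421 to 468 TPM at ZT20 and did not pass (exact permutation p = 0.971). The 1 matrix gene that rose was Angptl7 (ENSMUSG00000028989, chr4:148495183-148500460, minus strand), a secreted angiopoietin-like factor. It measured 7.22, 9.15, 12.9 and 14.6 TPM at ZT8 and 35.2, 48.1, 42.2 and 36.0 TPM at ZT20 (difference 1.82, adjusted p = 3.4e-05). Among genes of ribosome biogenesis 7 of 22 fell, by 0.45 at most (Polr1a), and 8 without replicate 1, against 8.09% and 13.1% of all genes. None rose. Junb and Zfp36 were the 2 immediate early genes of 19 that fell, by 0.73 and 0.62, a share of 10.5% near the 8.09% of all genes. Without replicate 1, Btg2 and Ier2 fell as well, making 4 of 19 against 13.1%. Junb shares exon sequence with Prdx2 on the opposite strand.

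Other leading rises belonged to no single list. Gsta3, a glutathione transferase, went from 6.06, 3.76, 4.87 and 6.10 TPM to 18.9, 17.1, 20.04 and 15.2 TPM (difference 1.62, limma adjusted p = 2.78e-10). Rasl10a, a small GTPase of the RAS family, rose by 1.58. Fkbp5, a cochaperone of the glucocorticoid receptor and a target of it, went from 1.93, 3.97, 3.53 and 4.23 TPM to 8.87, 10.3, 13.9 and 6.17 TPM (difference 1.28, adjusted p = 0.000788). It was the 1 gene of 17 on the glucocorticoid list that rose, and Klf9 the 1 that fell with all libraries, by 0.43 (adjusted p = 0.0473, and 0.0671 under median-of-ratios scaling), a share of 5.88% each way beside 2.92% and 8.09% of all genes. Without replicate 1, Pik3ip1 fell as well, by 0.65 (adjusted p = 0.00185). Egln3, an oxygen-sensing prolyl hydroxylase, measured 90.9, 47.0, 58.9 and 54.3 TPM at ZT8 and 146.3, 152.8, 127.6 and 141.0 TPM at ZT20 (difference 1.21, adjusted p = 6.98e-06). The remaining genes among the 12 largest rises were Gm45819 (1.47), the antisense gene Gm31105 (1.26), the long noncoding RNA Halr1 (1.19), and the small RNA genes Gm25047 (2.60) and Gm24233 (1.38). Both small RNAs averaged 13 and 11 reads per ZT20 library. Gm25047 had 0 reads in ZT8 replicates 2 to 4. Among the 12 largest falls, the noncoding genes were the small RNA Gm22009 (-1.39), the antisense gene Gm29417 (-1.31) and the pseudogene Gm12966 (-1.25). Gm29417 and Gm31105 overlap exons of Cxxc5 and Gab1 on the opposite strand and cannot be told apart from them by these reads, and the same holds in part for Dbp with Sphk2, Rasl10a with Gas2l1, Dnaja1 with Smu1 and Agpat2 with Egfl7.

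Lists with few or no calls included the 13 mitochondrially encoded protein genes and the 38 proteasome subunits, of which none passed in either fit (limma). Of 81 nuclear genes of the respiratory chain, 2 rose (Ndufa1 and Ndufa5) and none fell, a share of 2.47% near the 2.92% of all genes, and under median-of-ratios scaling 8 rose. Their differences were small but mostly above 0, in 72 of 81 genes and in 71 without replicate 1, with a median of 0.11 against -0.04 over all genes. Of 79 cytosolic ribosomal protein genes Rps4l alone fell with all libraries, and of 81 mitochondrial ones Mrpl39 alone. The differences were above 0 in 64 of the 79 cytosolic genes with all libraries and in 24 without replicate 1.

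Whether the 12-h difference depended on the feeding regimen was tested as the NRF difference minus the DRF difference between the same ZTs. It passed for 710 genes (5.11%), 321 of them with a higher difference under NRF (2.31%) and 389 with a lower one (2.80%), and for 1130 (8.13%) without NRF ZT8 replicate 1 (3.39% higher, 4.74% lower). In 669 genes it passed in both fits. Scaling by the median of ratios gave 1329. Of the 1529 genes called under NRF, 378 (24.7%) were also called under DRF, which is 22.6% of the 1671 DRF calls (12.0% of all genes, 3.37% higher and 8.66% lower), 316 in the same direction and 62 in the opposite one. Without NRF ZT8 replicate 1, 536 genes were shared (22.3% of the NRF calls and 30.6% of the DRF calls of that fit), 429 in the same direction and 107 in the opposite one. Both contrasts share no library.

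Several fasting genes had opposite signs under NRF and DRF, Pdk4, Ucp3 and Acot1 among them, while Slc27a1 had -0.05 under DRF. Pdk4 in DRF hearts held 55.5, 93.3, 60.2 and 55.1 TPM at ZT8, the fed time, and 1453, 1602, 1141 and 964 TPM at ZT20, so it was 4.27 higher at ZT20 on the log2 scale where NRF gave -2.04. The difference between the regimens was -6.32 (limma adjusted p = 6.79e-09, and 3.55e-08 without replicate 1). Ucp3 was 2.21 higher at ZT20 under DRF, with a regimen difference of -3.93, and Angptl4 was 3.62 higher, with -4.63 (adjusted p = 4.32e-05 and 0.000287). Acot1 gave -2.74, Ehhadh -1.89 and Cpt1a -1.78. In all, 11 of the 20 PPAR-responsive genes tested passed this test in both fits, each lower under NRF, against 2.80% of all genes (4.74% without replicate 1), and G0s2 passed in the other direction without replicate 1. Of the 28 fatty acid oxidation enzymes 4 passed, each lower under NRF, beside the same 2.80%. Scd4 fell under NRF and had -0.04 under DRF, a regimen difference of -2.06 (adjusted p = 0.00388).

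Chaperones differed between the regimens as well. Hsp90aa1 in DRF hearts measured 77.4, 71.3, 65.2 and 69.5 TPM at ZT8 and 69.9, 79.9, 69.2 and 77.2 TPM at ZT20. Its difference of 0.06 under DRF stood against 1.04 under NRF (regimen difference 0.98, adjusted p = 0.0442, and 1.28 with 0.00155 without replicate 1). Of the 22 chaperones 6 passed the regimen test with all libraries and 11 without replicate 1, all with the higher difference under NRF, against 2.31% and 3.39% of all genes, and within DRF Hsf1 alone of the 22 passed, where it fell by 0.20. Hsph1 gave 1.07 and Chordc1 0.77 (adjusted p = 0.0105 and 0.0123). Egln3 gave 1.19 (adjusted p = 0.00191), with 0.02 under DRF. Among cold-inducible genes 4 of 7 fell under DRF as well, against 8.66% of all genes, and Srsf5 alone passed the regimen test with all libraries, where 2.80% of all genes were lower under NRF. Without replicate 1 the test passed in 4 of the 7, 3 with the lower difference under NRF and Luc7l3 with the higher (0.50, adjusted p = 0.0451). Rbm3 fell by 0.74 under DRF, with a regimen difference of 0.01 ± 0.23 (SE), and Cirbp gave -0.78 (adjusted p = 0.0671, and 0.0207 without replicate 1).

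**Figure D4:**
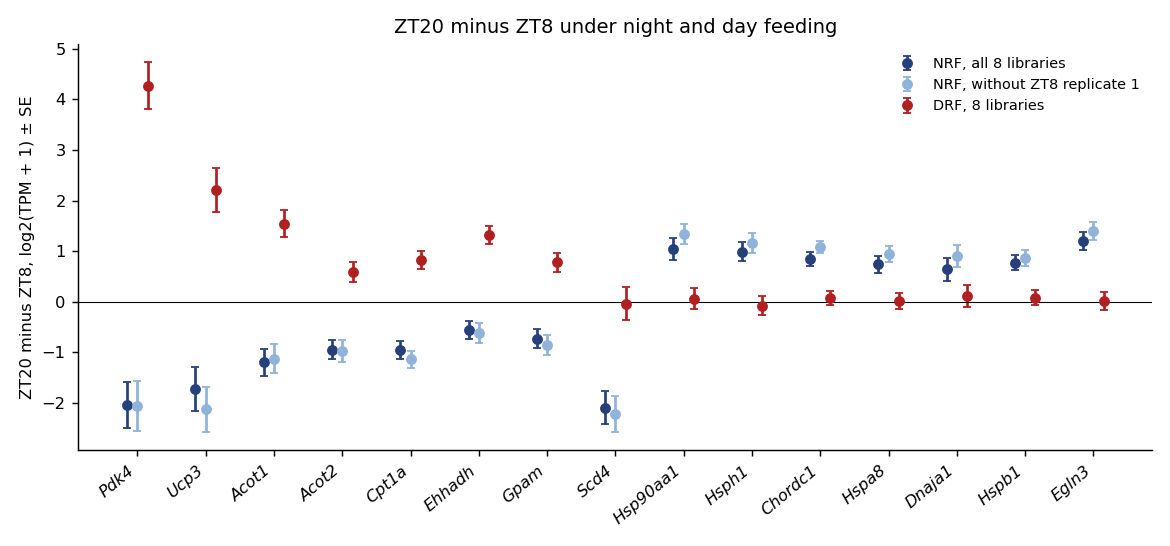
Fitted difference between ZT20 and ZT8, as log2(TPM + 1) with its standard error, for 15 genes under NRF with all 8 libraries (dark blue), under NRF without ZT8 replicate 1 (light blue) and under DRF (red, 8 libraries). Pdk4, Ucp3, Acot1, Cpt1a and Ehhadh lie on opposite sides of 0 under both regimens, and the 6 chaperones lie near 0 under DRF.

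The clock genes were compared between the regimens in the same way. No clock repressor or output gene passed the regimen test with all libraries, and 1 did without replicate 1 (Nr1d1, -1.56, adjusted p = 0.00349, against -1.20 and 0.0591 with it). Dbp fell by 3.09 under DRF and by 3.18 under NRF (regimen difference -0.09, adjusted p = 0.961). Cry1 rose by 0.76 under DRF and by 1.61 under NRF, a regimen difference of 0.85 (adjusted p = 0.0162). Of the 7 genes on the list of clock activators and Bmal1-phase genes, Cry1 passed with the higher difference under NRF and Npas2 with the lower (-0.82, adjusted p = 0.0413). Without replicate 1 the number was 3, all higher under NRF, Nfil3 among them (1.42, adjusted p = 0.000455), and Npas2 no longer passed (adjusted p = 0.11). The 6 largest regimen differences in each direction also took in Cyp1a1 (5.13), a cytochrome P450 of the aryl hydrocarbon receptor, the chemokine gene Ccl12 (2.22), the integrin gene Itgb6 (1.63) and the metallothionein gene Mt2 (-2.46). In Cyp1a1, Ccl12, Itgb6 and Mt2 the NRF difference did not pass (adjusted p = 0.236, 0.896, 0.121 and 0.59), while the DRF one did. DRF levels of Cyp1a1 were 48.9, 38.9, 123.8 and 35.4 TPM at ZT8 and 1.75 to 4.62 TPM at ZT20. Smaller or less counted genes completed the 12, namely Gm45819, Gm49490, Gm22748 and Mir7026, with Gm49490 sharing exon sequence with C1qtnf6.

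Another light-to-dark comparison under NRF, ZT16 minus ZT4, takes a time 4 h into the dark and a time 4 h into the light. Its difference departed from that between ZT20 and ZT8 in 501 genes (3.61%), 129 with the higher value for ZT20 minus ZT8 (0.929%) and 372 with the lower (2.68%), and in 552 (3.97%) without replicate 1. Clock genes led here. All 12 clock repressors and output genes passed, each lower for ZT20 minus ZT8. Dbp was 1.68 higher at ZT16 than at ZT4 and 3.18 lower at ZT20 than at ZT8, a departure of -4.86 (limma adjusted p = 2.91e-07). Arntl gave 3.37, with 8.52 to 10.4 TPM at ZT4 and 0.747 to 1.68 TPM at ZT16. The period genes Per2, Per3 and Per1 gave -2.88, -2.86 and -2.65, and Ciart -3.00. Tcap had a difference of 0.57 between ZT16 and ZT4 that did not pass (adjusted p = 0.0866) and gave -2.04. Npas2 (1.85), Fam124b (2.01), Tmem171 (2.10) and Spon2 (2.29) followed Arntl in direction. Gm22574, 60 bases long, gave -2.48. Pdk4 fell by 2.45 between ZT4 and ZT16 and departed by 0.40 (adjusted p = 0.805), its ZT4 libraries spreading over 649 ± 570 TPM (SD, n = 4). Between ZT4 and ZT16 2254 genes passed (16.2%, 7.92% higher and 8.31% lower), and of the 22 chaperones 12 rose, and none departed, while 4 of the 20 PPAR-responsive genes did (against 2.68% of all genes), each lower for ZT20 minus ZT8, among them Slc27a1 (-1.18) and Pnpla2 (-0.59).

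**Figure D5:**
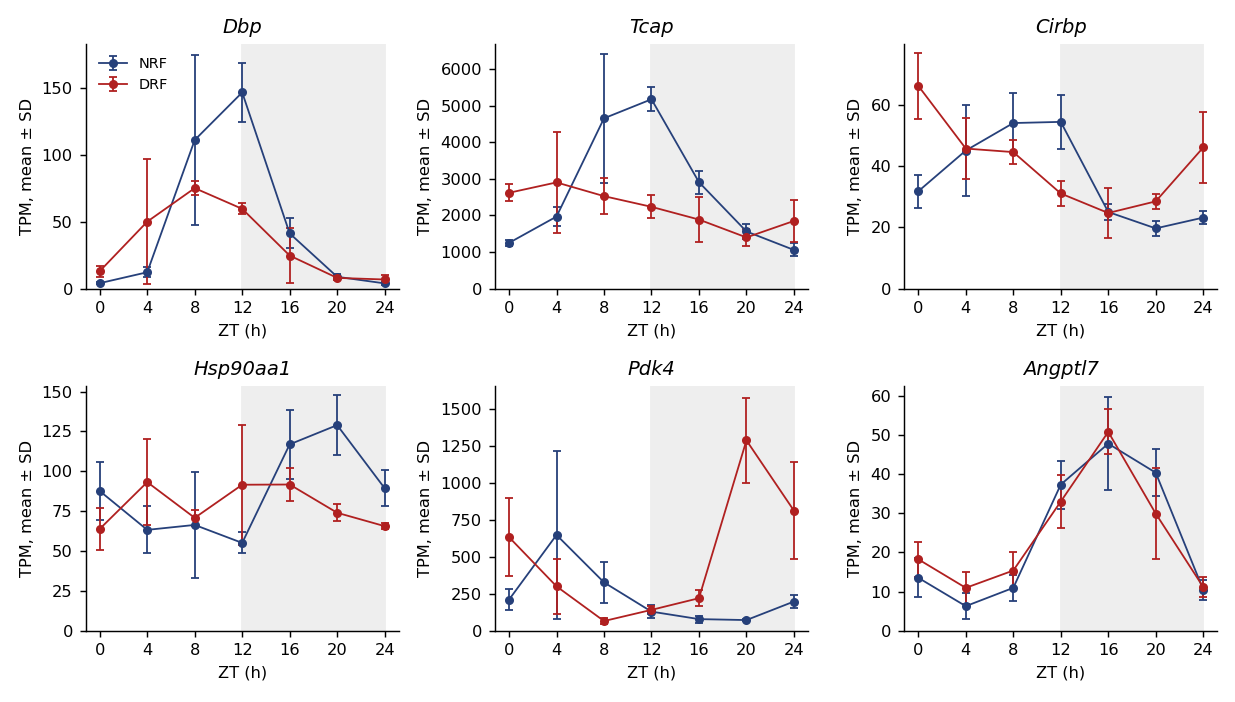
Mean TPM ± SD (n = 4 libraries per point) of 6 genes at 7 ZTs under NRF (blue) and DRF (red), with the dark phase shaded. At ZT8 and ZT20, Dbp, Tcap and Cirbp fall and Hsp90aa1 and Angptl7 rise under NRF, and Pdk4 stands at 328 and 72.6 TPM under NRF and at 66.0 and 1290 TPM under DRF.

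Over the NRF day, the ZT8 and ZT20 samples fall at different points of each profile. The group means of Dbp were 12.2 TPM at ZT4, 111 TPM at ZT8 and 147 TPM at ZT12, and then 41.3 TPM at ZT16 and 8.83 TPM at ZT20. Tcap averaged 1968 TPM at ZT4, 4653 at ZT8, 5174 at ZT12 and 1056 at ZT24, and ZT12 was the highest of its group means, but without replicate 1 the ZT8 mean was 5524 TPM, above that of ZT12. Angptl7 averaged 6.29 TPM at ZT4 and 47.8 TPM at ZT16. Hsp90aa1 was highest at ZT20, with 129 TPM. Its lowest group mean was that of ZT12, with 55.1 TPM, or that of ZT8 without replicate 1, with 50.0 TPM against 66.4 TPM with it. The SD of NRF ZT8 includes replicate 1 and was 63.4 TPM for Dbp, against 21.9 TPM at ZT12.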

How the data were processed

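Polyadenylated heart RNA of 56 libraries was sequenced by the authors as paired 150-base reads from a kit that does not mark strand. Per the submitters' processing notes, reads were aligned to mm10 with HISAT2 2.0.5 and counted with featureCounts 1.5.0-p3. The deposited values are labelled as TPM, but they scale with log2(1 + depth-scaled reads) divided by gene length. This log2 scale was undone per gene with exon lengths of GENCODE release M21 (834 lengths were searched, 799 of them on chromosomes 17 to 19), and 99.999497% of 1192374 values came out within 0.1 of a whole read. Of 22864 genes listed, 3 (Hsp90ab1, Atp5a1 and Fth1) could not be resolved.

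Reads were turned into linear TPM, and log2(TPM + 1) was fitted with limma 3.58.1 in R 4.3.3 (14 group means, 56 libraries, empirical Bayes with a trend) for the 13893 genes averaging 1 TPM or more. A gene was called at a Benjamini-Hochberg adjusted p under 0.05 over all genes tested. The design had assumed linear TPM as deposited. Reads per library ranged from 29.3 to 53.0 M, and replicates differed by more than counting noise (chi-square per gene 10.4 to 80.4 within the groups compared). Library measures were compared with two-sided exact permutation tests, whose smallest possible p is 0.0286. Scripts were tested on simulated data. No value column lacked a sample.

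The gene lists and the comparison itself were chosen with earlier results of these data known. Named genes are the 12 largest rises and 12 largest falls called with and without NRF ZT8 replicate 1, up to 6 called members of each list by size, uncalled members where a list is described, and the 6 largest in either direction for each difference of differences. Alternatives were median-of-ratios scaling, a pseudocount of 0.1, no filter, fewer samples in the fit, a replicate block, voom on recovered reads, the deposited scale, a threshold of 0.01 and leaving out each library. Promoter sequences are those of RefSeq. Some genes that meet the rule are not reported here.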

Additional observations from a re-analysis of the deposited data

Results flagged for a closer look

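Within groups of 4 libraries, 78 sets of values were tested for a library far from the others, and 10 were flagged, where chance flags about 1 in 20. In 5 of them the library was NRF ZT8 replicate 1, which held 2041 TPM of Tcap, 22.4 TPM of Nfil3, 13.2 TPM of Cry1 and 2.88 TPM of Gm25047, and a sum of 7.16 TPM of lung and airway markers. NRF ZT20 replicate 2 stood apart with 40.5 M reads, 60.4 TPM of fat markers and 5.63 TPM of lung and airway markers. NRF ZT20 replicate 3 was low in atrial markers, at 436 TPM, and NRF ZT8 replicate 2 high in liver markers, at 3.44 TPM. The part of these marker sums in the results was not tested.

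The difference between ZT20 and ZT8 departed between NRF and DRF by a test of the difference itself (limma, NRF minus DRF, adjusted p under 0.05), and the 6 largest departures in each direction are given. It was lower under NRF for Pdk4 (-6.32), Angptl4 (-4.63), Ucp3 (-3.93), Acot1 (-2.74), Mir7026 (-2.71) and Mt2 (-2.46). It was higher under NRF for Cyp1a1 (5.13), Ccl12 (2.22), Gm22748 (1.89), Gm45819 (1.74), Gm49490 (1.72) and Itgb6 (1.63). Mir7026 and Gm22748 passed narrowly (adjusted p = 0.0442 and 0.0473).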

How the results depend on the processing

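The 24 largest differences and up to 6 called members of each list, 139 genes in all, kept their sign under the 17 settings tried for each. Other named genes were not followed through these settings, and some that passed in neither fit changed sign without replicate 1, such as Npas2 (-0.23 and 0.08). Of 408 pairs of the 24 largest differences and a setting, 392 kept their call and 16 lost it, all in Gm22009, Gm12966 and Gm24233. Over the 139 genes, 273 of 2363 pairs lost the call, in 54 genes, and 57 gained it. The number of called genes moved more. With only both groups in the fit 464 genes were called (144 higher, 320 lower), and at an adjusted p under 0.01 there were 701 (198 and 503). The number of higher genes was 1004 with median-of-ratios scaling, 806 with voom and 1039 on the deposited scale. Leaving out 1 library gave 748 to 2400 genes (266 to 578 higher, 417 to 1822 lower). The count was 2400 without NRF ZT8 replicate 1, 748 without NRF ZT8 replicate 4 (331 higher) and 995 without NRF ZT20 replicate 3. The 266 higher genes came without NRF ZT8 replicate 2. In settings chosen after seeing the data, all without NRF ZT8 replicate 1, the higher genes numbered 1490 with median-of-ratios scaling, 1038 with voom and 1417 on the deposited scale. Without that library 1211 genes passed at 0.01 (283 higher, 928 lower), and 1781 with only both groups in the fit (448 higher, 1333 lower). The difference between regimens passed for 1329, 1268, 1362 and 261 genes under median-of-ratios scaling, voom, the deposited scale and 0.01, and for 488 to 1130 when 1 library was left out, with 1130 without NRF ZT8 replicate 1. The departure from ZT16 minus ZT4 passed for 903, 781, 928 and 177 under the same settings and for 326 with only the NRF libraries. Leaving out 1 library gave 273 to 597 there, with 327 without NRF ZT20 replicate 4, 330 without NRF ZT8 replicate 4, 273 without NRF ZT16 replicate 2 and 306 without NRF ZT4 replicate 1. Of 1080 list counts by setting, 199 moved by more than 1.5 times. The causes were not tested. The replicate block gave 1509 genes, 707 for the regimens and 496 for the departure. The deviations of same-numbered libraries had correlations of 0.095, 0.031, -0.024 and 0.103, so the numbers do not pair the samples.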

Other observations

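Genes outside the lists, chosen after their values were seen, are given here as values. Of 21 mitochondrial rRNA and tRNA genes tested, 7 rose at ZT20 and none fell (limma, adjusted p under 0.05, against 2.92% of all genes that rose), 9 rose without NRF ZT8 replicate 1 (against 4.16%) and 8 under median-of-ratios scaling, and none passed under DRF or for the difference between regimens. The median difference was 0.41. The large ribosomal RNA gene mt-Rnr2 measured 9661, 6971, 6970 and 5802 TPM at ZT8 and 13647, 13330, 12199 and 12943 TPM at ZT20, with no overlap, and rose by 0.85. These RNAs were read from a polyadenylated preparation, and the 13 mitochondrially encoded protein genes had no member that passed. Serpinh1, the collagen chaperone HSP47, measured 440, 241, 270 and 310 TPM at ZT8 and 505, 466, 410 and 425 TPM at ZT20, a rise of 0.55 at a time when Col1a1 and Col3a1 fell. Its difference under DRF was -0.51, and that between regimens was 1.06 (adjusted p = 0.00663). Ankrd1 and Csrp3, stretch-responsive genes of cardiac muscle, fell by 0.63 and 0.50.

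Outside the compared groups, the library labelled DRF ZT4 replicate 1 held 119 TPM of Dbp and 1.96 TPM of Arntl, while the other DRF ZT4 libraries held 17.7 to 37.7 TPM and 5.80 to 7.22 TPM. Over the 19 clock genes its correlation was 0.987 with NRF ZT8 and 0.338 with its own group, as a description across genes that share a library. NRF ZT8 replicate 1, over the same genes, had 0.66 with DRF ZT4. Both libraries stayed in the groups their labels give. Cyp1a1 spread widely at NRF ZT16, with 4.31, 166.3, 5.66 and 131.5 TPM.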
